A study of Mus musculus with 15 samples.

Results

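Antisense non-coding genes and non-coding genes that start from a bidirectional promoter held 559 of the 132293 SAM68 binding sites in 3 deposited site lists. They were taken by the gene class written beside each site, which had to be antisense or bidirectional promoter lncRNA, and the sites of the imprinted antisense genes Airn and Kcnq1ot1 were left out. The 559 sites lay in 93 of the 7949 genes with a site, 84 of the antisense class and 9 of the bidirectional class. Of these 93 genes, 59 could be given a symbol by position.

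SAM68 was mapped by iCLIP2, in which ultraviolet light links the protein to RNA and truncated cDNAs mark the position of the link. The cells were E14, an established mouse embryonic stem cell line, with no altered allele given in the labels. Day 0 cells were kept feeder-free in serum, LIF and inhibitors of GSK and MEK. Day 3 embryoid bodies were grown in hanging drops and day 10 embryoid bodies in spheroid microplates from the start, both in differentiation medium, so day and culture format cannot be told apart. Each day had 5 libraries, 15 in all, but each deposited list stands for a whole day and carries no value per library. There is therefore no replicate spread and no test between days, and every interval below is a 95% interval that covers the counting of sites only. Sites of 1 gene are not independent, read depth is unknown, and more sites can be called where an RNA is more abundant. In these mixed cell populations, fewer cells of a type and less RNA per cell cannot be told apart.

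SAM68 is a nuclear RNA-binding protein of the STAR family, known for regulating alternative splicing and for binding RNA rich in A and U. Antisense transcripts run along the opposite strand of another gene, and some of them, such as Tsix and the Gnas antisense transcript, belong to X inactivation or imprinted loci. A bidirectional promoter lncRNA starts close to the start of a protein-coding gene and is transcribed away from it.

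Few sites could be shown with their sequence, since only RefSeq start windows on GRCm38.p6 were at hand. They are printed 5′ to 3′ on the RNA strand as 41-nt windows, and capitals mark the 5-nt site that was called. The first pair lies in Snhg9, a short snoRNA host gene whose start lies 98 nt from that of the ribosomal protein gene Rps2, on the other strand. Its windows are chr17:24719885-24719925 (minus strand) on day 0 and chr17:24719881-24719921 (minus strand) on days 3 and 10. The centres lay 158 and 162 nt upstream of the Rps2 start. They are shown because Snhg9 had a site called in overlapping positions on all 3 days. The last lies in Tsix on day 3, at chrX:103483223-103483263 (plus strand), and is shown because its centre was 10 nt upstream of the start of Xist, the RNA that Tsix opposes.
Snhg9, day 0: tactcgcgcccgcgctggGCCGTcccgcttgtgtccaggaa
Snhg9, days 3 and 10: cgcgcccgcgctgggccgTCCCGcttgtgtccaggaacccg
Tsix, day 3: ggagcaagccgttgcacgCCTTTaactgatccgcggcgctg
The letters TTAA and TAAA, which can overlap each other, were searched in these windows on the RNA strand. TTAA was present in 1 of the 3 windows, that of Tsix, and TAAA in none. Over all 295 site windows of the series that fell within a RefSeq start window, 17.3% held TTAA and 15.6% held TAAA. When the same windows were read on the other strand, 17.6% held TAAA. TTAA reads the same on both strands, so its share there was 17.3% by construction and says nothing about strand.

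The start windows of a pair of members are shown because they share promoter sequence with a protein-coding gene to which no site was linked by name. Each runs from upstream to downstream of the member's start over 300 bases, and capitals mark the bases that also belong to the start window of the protein-coding gene. The Gm4890 window is chr8:79294828-79295127 (plus strand). It shares 216 bases with the window of Mmaa, a gene of mitochondrial vitamin B12 metabolism, and the starts lie 117 nt apart. The Gm26944 window is chr7:92636911-92637210 (plus strand) and shares 118 bases with that of Ankrd42, with starts 19 nt apart.
Gm4890: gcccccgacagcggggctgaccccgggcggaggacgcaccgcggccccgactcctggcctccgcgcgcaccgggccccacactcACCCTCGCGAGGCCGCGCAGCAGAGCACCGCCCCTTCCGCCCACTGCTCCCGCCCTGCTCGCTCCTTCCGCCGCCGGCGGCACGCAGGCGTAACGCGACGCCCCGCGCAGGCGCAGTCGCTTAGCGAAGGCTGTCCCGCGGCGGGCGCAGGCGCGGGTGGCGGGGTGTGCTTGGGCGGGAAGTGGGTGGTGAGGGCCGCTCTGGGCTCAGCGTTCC
Gm26944: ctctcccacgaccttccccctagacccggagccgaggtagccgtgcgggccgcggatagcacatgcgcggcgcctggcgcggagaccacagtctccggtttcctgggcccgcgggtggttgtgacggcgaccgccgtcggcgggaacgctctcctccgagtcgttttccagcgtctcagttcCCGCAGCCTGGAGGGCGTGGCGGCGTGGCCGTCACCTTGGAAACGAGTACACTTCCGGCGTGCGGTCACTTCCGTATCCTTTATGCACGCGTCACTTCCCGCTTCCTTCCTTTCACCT
The Gm4890 window was 78% G and C with 44 CpG, and the Gm26944 window was 66.7% with 38 CpG. The median over 17492 start windows of protein-coding genes was 56.3% with 13 CpG. The pair does not stand for all members that share start sequence with a protein-coding gene without a linked site. The others ranged from 10 CpG in 4930526L06Rik and 11 in Rab26os to 45 in Appbp2os.

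The mature miRNAs encoded within Dnm3os are shown because that gene had 17 sites on day 10 and none before. Dnm3os is the antisense transcript inside the dynamin gene Dnm3 and is the host of miR-199a and miR-214. Capitals mark the seed, bases 2 to 8, and no seed is shared among the 4.
mmu-miR-199a-5p: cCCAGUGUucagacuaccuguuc
mmu-miR-199a-3p: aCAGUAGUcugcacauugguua
mmu-miR-214-5p: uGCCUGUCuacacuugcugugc
mmu-miR-214-3p: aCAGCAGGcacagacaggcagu
The nearest Dnm3os site lay 703 nt from the Mir199a-2 hairpin and another 151 nt from the Mir214 hairpin, so no site was called in a hairpin.

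The lists held 29740 sites on day 0, 28266 on day 3 and 74287 on day 10. The labelled stages were checked on marker genes by the number of sites in them. The 6 pluripotency markers held 187, 9 and 9 sites on days 0, 3 and 10. The 3 primed epiblast markers held 45 sites, all on day 3, and the 7 heart muscle markers held 0, 4 and 727 sites. Markers of other cell types held sites on day 10 as well, with 245 sites in endoderm markers (none in Sox17), 218 in neural markers (none in Pax6 or Sox1) and 43 in endothelial and blood markers (none in Kdr). Their part in the changes of the non-coding genes was not tested.

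Pooled over all members, antisense and bidirectional genes held a smaller share of the sites after differentiation. On day 0 they held 169 sites, which was 0.568% of the list (Wilson interval 0.489 to 0.660). On day 3 they held 118 sites or 0.417% (0.349 to 0.500), and on day 10 they held 272 sites or 0.366% (0.325 to 0.412). The share on day 3 was 0.735 times that on day 0 (exact conditional binomial interval 0.576 to 0.935), and that on day 10 was 0.644 times that on day 0 (0.530 to 0.785). Between days 3 and 10 the ratio was 0.877 with an interval of 0.704 to 1.098, which includes 1. Of the 169 day 0 sites, 19 lay in 4732471J01Rik, 18 in 4930533K18Rik, 13 in Gm20275 and 9 in ENSMUSG00000087193.7. These genes had no site on day 10, and on day 3 only 4732471J01Rik had any, with 9. The ratios were not computed without these genes, so the drop may rest on them and is not shown for the other members. In the other direction, 30 of the 93 members had sites on day 10 alone, as did 1479 of the 7380 protein-coding genes. The day 10 list is the longest, so this is read as no result about the members.

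The antisense class carried the smaller share after differentiation, and all the genes just named as lost by day 10 belong to it. Its 156, 98 and 244 sites gave ratios of 0.661 (0.508 to 0.856) for day 3 over day 0 and 0.626 (0.510 to 0.771) for day 10 over day 0. The bidirectional class, with 13, 20 and 28 sites, gave 1.62 (0.766 to 3.54) and 0.862 (0.432 to 1.81), and both intervals include 1. Its day 10 to day 3 ratio was 0.533 with an interval of 0.290 to 0.997, which excludes 1. Among other non-coding classes, lincRNA shares had a day 10 to day 0 ratio of 0.527 (0.469 to 0.594) and processed transcripts 0.708 (0.610 to 0.824). Airn and Kcnq1ot1, the antisense genes left out, went from 78 sites on day 0 to 64 on day 3 and 425 on day 10, a day 10 to day 0 ratio of 2.18 (1.71 to 2.81). With these genes added to the members, the ratio of day 10 to day 0 was 1.13 with an interval that included 1, so the direction of that comparison depends on leaving them out. The ratio of day 10 to day 3 became 1.46 (1.24 to 1.725), while that of day 3 to day 0 stayed below 1 at 0.775 (0.637 to 0.943).

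**Figure D1:**
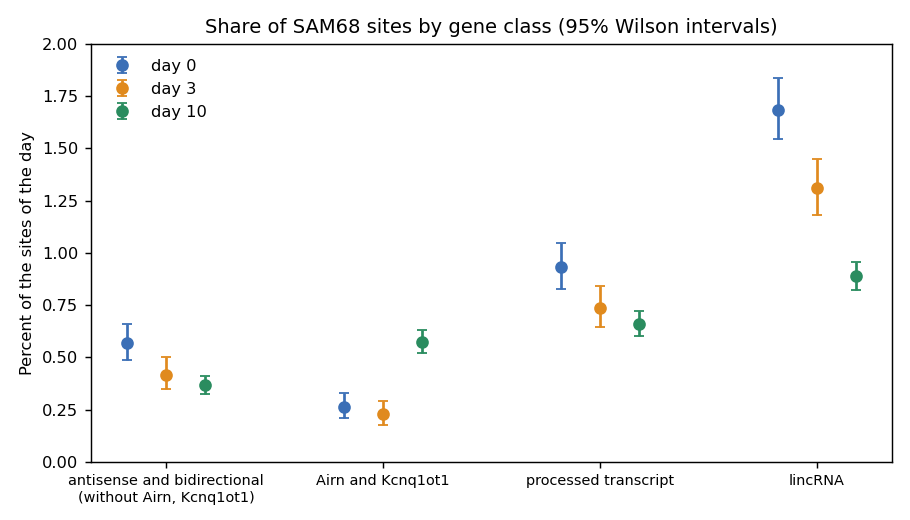
Share of each day's SAM68 sites (percent of the list, points with 95% Wilson intervals) in antisense and bidirectional genes, in Airn and Kcnq1ot1, in processed transcripts and in lincRNAs. The antisense and bidirectional share goes from 0.568% on day 0 to 0.366% on day 10, while that of Airn and Kcnq1ot1 is highest on day 10.

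Sites were spread over 49 genes on day 0, 40 on day 3 and 52 on day 10. The 5 genes with most sites held 75, 49 and 113 sites, or 44.4%, 41.5% and 41.5% of the members' sites of the day. A single site was all that 24, 19 and 18 of the bound genes had.

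Gnasas1, the Gnas antisense transcript also called Nespas, had the most sites of any member. It had 16 sites on day 0, 16 on day 3 and 32 on day 10 within its 14.2 kb (chr2:174281237-174295436, minus strand, GRCm38.p6). Its share of the list did not differ between days beyond counting error, with a day 10 to day 0 ratio of 0.801 (0.427 to 1.56). At 2.25 sites per kb on day 10 it was covered far more densely than E130307A14Rik, which reached 0.262 sites per kb.

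Several long antisense genes had sites in stem cells that were not called later. The gene 4930533K18Rik, 65.6 kb on chromosome 10, had 18 sites on day 0 and 0 on days 3 and 10, and the interval of the ratio to day 0 reached no higher than 0.239 on day 3 and 0.0911 on day 10. Gm20275, 114.8 kb on chromosome 9, had 13, 0 and 0 sites, with upper bounds of 0.345 and 0.131. The transcript 4732471J01Rik, 189.6 kb in the Ceacam region of chromosome 7, had 19 sites on day 0, 9 on day 3 and 0 on day 10. Its day 3 ratio of 0.498 (0.199 to 1.16) was open, and the day 10 interval ended at 0.0858. The unnamed antisense gene ENSMUSG00000087193.7, inside the span of the histone methyltransferase gene Suv39h1 on chromosome X, had 9, 0 and 0 sites. Srrm4os, opposite the neural splicing regulator Srrm4 and chosen after its values were seen, had 7, 0 and 0.

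Some members had most of their sites on day 3. Tsix, on chromosome X, is the antisense regulator of Xist. It had 2 sites on day 0, 9 on day 3 and 0 on day 10. All 11 lay in the last part of its RefSeq span, between 94.4% and 99.8% of the way from the 5′ end, where the gene crosses the start of Xist. Both day 0 sites were found again on day 3. The ratio of day 3 to day 0 was 4.73 with an interval of 0.980 to 45.0, so the difference from day 0 was open, while the day 10 to day 3 interval ended at 0.193. Xist itself had 0, 1 and 0 sites. Gm4890, the bidirectional member beside Mmaa whose start window is printed above, had 1, 8 and 2 sites. Its day 10 share was 0.0951 times that of day 3 (0.00984 to 0.477), and the day 3 to day 0 ratio was 8.42 with a wide interval of 1.13 to 373. The antisense gene 1110002L01Rik, chosen after its values were seen and whose start lies 110 nt from that of the chromatin regulator gene Asxl2, had 5, 7 and 1 sites, with an open day 3 to day 0 ratio of 1.47 (0.402 to 5.89). Its day 10 share was 0.0801 times that of day 0 (0.00169 to 0.716) and 0.0544 times that of day 3 (0.00121 to 0.423), each from fewer than 10 sites over both lists. Asxl2 had 53, 42 and 32 sites.

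Other members were seen on day 10 alone. Dnm3os (chr1:162217623-162225550, plus strand), the miR-199a and miR-214 host, had 0, 0 and 17 sites within 7.93 kb, or 2.14 sites per kb. The interval of its ratio began at 1.65 against day 0 and at 1.57 against day 3. Igf2os, next to the imprinted growth factor gene Igf2, had 0, 0 and 6 sites, and the unnamed antisense gene ENSMUSG00000087700.2, inside the span of the hypoxia factor Hif1a, had 0, 0 and 9. Their intervals against day 0 began below 1, at 0.471 and 0.790, so both were open.

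Other members had sites on every day, with most of them on day 10, the longest list. E130307A14Rik, 110.6 kb on chromosome 10, had 5, 4 and 29 sites, with a ratio of day 10 to day 0 of 2.32 (0.889 to 7.68). Brip1os had 2, 7 and 17 sites, 24 of the 26 in the first of 3 equal parts of its 103.1 kb span. Gm26944 had 6, 1 and 14 sites, and Sp3os, next to the transcription factor gene Sp3, had 4, 3 and 12. D130007C19Rik, chosen as the next by number of sites, had 3, 3 and 10. Gt(ROSA)26Sor, the transcript of the Rosa26 locus used for transgene insertion, had 2, 2 and 7. Every interval between days 0 and 10 for these 6 genes includes 1.

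The bidirectional class rested on few genes. ENSMUSG00000074024.5 on chromosome 7, within 1 kb of the small GTPase gene Rab30, had 8, 7 and 18 of the class's sites, and its ratio of day 10 to day 0 was 0.901 (0.373 to 2.39). Gm4890 followed with 11 sites in all. ENSMUSG00000113902.1 had 1, 3 and 4 sites beside Cpsf2, a subunit of the cleavage and polyadenylation factor. The other 6 genes had 1 to 3 sites each over the 3 lists, among them D430020J02Rik with 2, 1 and 0 beside the condensin gene Ncapg2, and 2900060N12Rik with 0, 0 and 2 beside Mboat2.

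**Figure D2:**
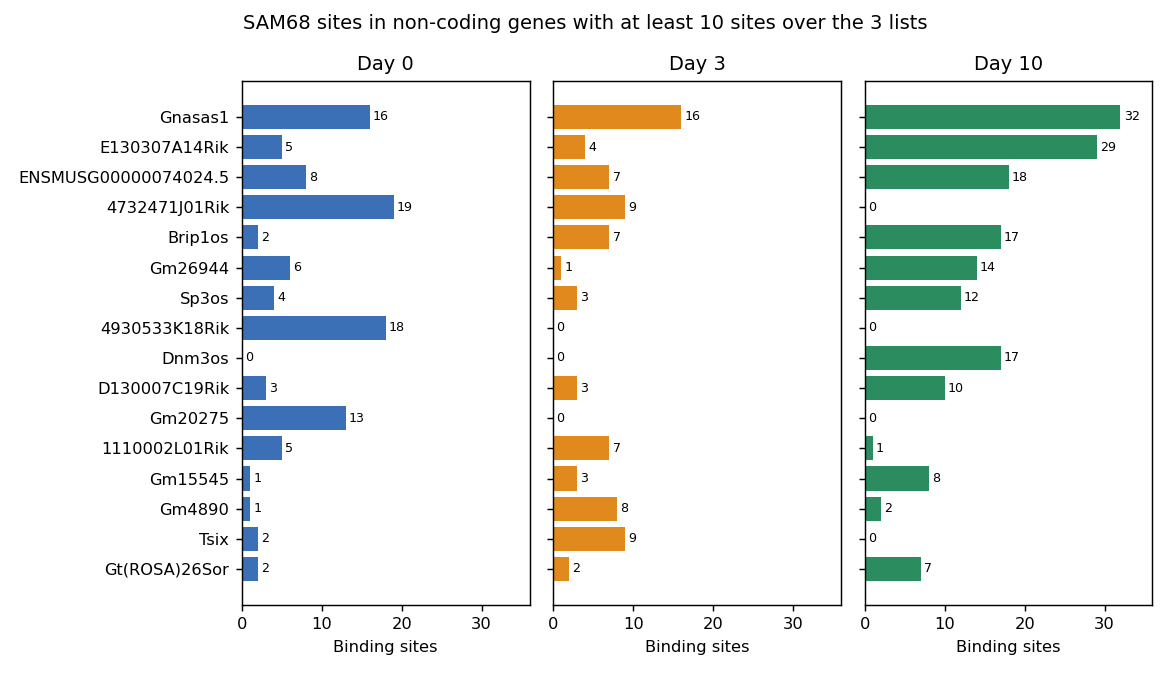
Number of SAM68 sites on each day (bars, counts printed beside them) in 16 of the 17 antisense and bidirectional genes with 10 or more sites over the 3 lists. Gnasas1 is highest on days 3 and 10 and 4732471J01Rik on day 0, and Dnm3os has a bar on day 10 alone.

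The genes with a larger or smaller share were set beside the same rule over all genes of the lists. A gene with at least 10 sites over both lists counted as larger or smaller where the interval of its ratio excluded 1. From day 0 to day 3, 7 members had enough sites. None was larger and 2 were smaller (4930533K18Rik and Gm20275), where the rule called 12% of 1573 genes larger and 14% smaller. From day 0 to day 10, 2 of 12 members were larger (Dnm3os among them), or 16.7% against 22.5% of 2425 genes. In the same pair 3 of 12 were smaller (4732471J01Rik, 4930533K18Rik and Gm20275), or 25% against 18.9%. From day 3 to day 10, 2 of 11 were larger (again with Dnm3os) against 17.6% of 2333 genes, and 1 was smaller (Gm4890) against 15.5%. With 7 to 12 members tested, these counts are read as no result about the class. A gene with all of 10 or more sites in the day 0 list had to be called smaller, and 56, 69 and 63 members had a site but were under the minimum in the 3 pairs. Over the members tested, the median log2 ratio (pseudocount 1) was -0.10, -0.08 and 0.07, against 0.00, 0.00 and -0.07 over all genes tested.

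Members were bound on all days less often than protein-coding genes, a difference that was open among genes with like numbers of sites. Of the 93 members, 16 had sites on all 3 days (17.2%, 10.9 to 26.1), 16 on 2 days and 61 on 1 day. Of the 61, 19 were seen on day 0 alone, 12 on day 3 alone and 30 on day 10 alone. Among the 7380 protein-coding genes these numbers were 556, 442 and 1479, so day 10, the longest list, gave the largest group there as well. Among the 165 lincRNA genes they were 36, 10 and 29. Protein-coding genes were bound on all 3 days in 42.3% of cases, a difference of -25.1 percentage points (Newcombe interval -31.6 to -16.1). The share in lincRNA genes was 25.5% (19.4 to 32.6), and its interval overlaps that of the members. Among genes with 10 or more sites it was 11 of 17 members (64.7%) against 80.1%, a difference of -15.4 points with an interval of -38.8 to 2.66. Among genes with 5 to 9 sites it was 2 of 10 against 48.2% (-42.8 to 2.89), and both intervals include 0.

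Over all genes, the share of member sites found again was open against that of protein-coding sites. A site counted as found again where a site of the other list overlapped it by at least 1 nt on the same strand. Of the 169 day 0 sites, 21 were found on day 3 (12.4%, 8.27 to 18.2), against 17.2% of protein-coding sites. On day 10, 30 of the 169 were found (17.8%) against 24.1%, and 32 of the 118 day 3 sites (27.1%) against 25.8%. The differences of -4.77 (-8.94 to 1.07), -6.36 (-11.4 to 0.114) and 1.35 (-5.87 to 10.0) points all have intervals that include 0. The first 2 were lower without Gnasas1, an alternative chosen after seeing the data, at -6.08 (-10.2 to -0.10) and -10.4 (-15.0 to -4.02). Matching by the same centre or by centres within 10 or 50 nt also took the second below 0, to between -4.77 and -11.0 points, and centres within 50 nt took the first to -6.53 (-11.2 to -0.304).

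Within genes bound on both days, 30 of 65 member sites of day 0 were found on day 10, and 6836 of 25242 protein-coding sites. A site found again lies in such a gene by its definition, and the numbers found were the same with and without the restriction, which removed only sites that were not found again. It removed 104 of the 169 member sites but 3106 of the 28348 protein-coding sites, and the higher member share that it leaves (46.2% against 27.1%) is given as a description and read as no difference in reuse. Gnasas1 supplied 9 of the 30.

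**Figure D3:**
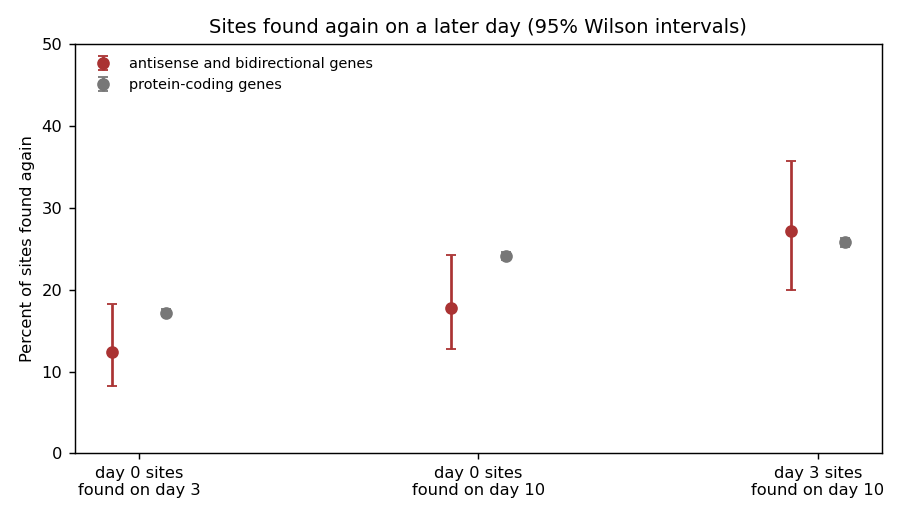
Percent of sites found again on a later day (points with 95% Wilson intervals) for antisense and bidirectional genes and for protein-coding genes. The members' points are 12.4%, 17.8% and 27.1%, and those of protein-coding genes are 17.2%, 24.1% and 25.8%.

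The sites called on all 3 days numbered 12 of the 169 day 0 sites (7.10%, 4.11 to 12.0), and they lay in 9 genes. Gnasas1 held 4 of them. One each lay in E130307A14Rik, ENSMUSG00000074024.5, ENSMUSG00000113902.1, Gm15564, Gt(ROSA)26Sor, Rab26os, Snhg9 and Sp3os. The share for protein-coding sites was 9.97%, a difference of -2.87 points (-5.88 to 2.04). Of the 16 Gnasas1 sites of day 0, 4 were found on day 3 and 9 on day 10, and 8 of its 16 day 3 sites were found on day 10. All 3 day 3 sites of Sp3os were found on day 10. In 4732471J01Rik, by contrast, 2 of 19 day 0 sites were found among the 9 of day 3.

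By their medians, sites in the members stood closer together than those in protein-coding genes. The median distance to the next site of the same gene was 565, 478 and 214 nt on days 0, 3 and 10, against 721, 865 and 365 nt in protein-coding genes. Sites within 50 nt of the next were 6.90%, 12.1% and 20.9% of members' sites against 8.87%, 6.91% and 13.0%. In lincRNA genes the medians were 357.5, 402.5 and 222 nt and these shares 18.5%, 13.9% and 23.9%, so close spacing was not particular to the members. The members are shorter, with a median span of 13.5, 14.2 and 14.2 kb among bound and named genes against 39.7, 41.6 and 40.9 kb. Per length, the median member held 0.125, 0.195 and 0.236 sites per kb and the median protein-coding gene 0.0792, 0.0757 and 0.122. These are descriptions, since length was not matched.

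Along the gene, the interval of the difference from protein-coding sites excluded 0 in 2 of the 6 comparisons made. The 6 compared the first and last part on each day. On day 0, 45.4% lay in the first of 3 equal parts of the RefSeq span against 33.2%, a difference of 12.2 points (3.85 to 20.8). On day 10, 21.5% lay in the last part against 31.7%, a difference of -10.2 points (-15.2 to -4.25). The last part on day 0 (1.41, -6.30 to 9.96), the first part on day 10 (2.58, -3.68 to 9.26) and both parts on day 3 had intervals that include 0. Over the 3 lists, Brip1os and Gm20275 had 24 of 26 and 11 of 13 sites in the first part and Tsix had all 11 in the last. All 13 Gm20275 sites were of day 0 and so entered the day 0 difference. No comparison was made without these genes, and sites of 1 gene are not independent. The 2 differences may therefore rest on few genes and are read as no result about the class.

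**Figure D4:**
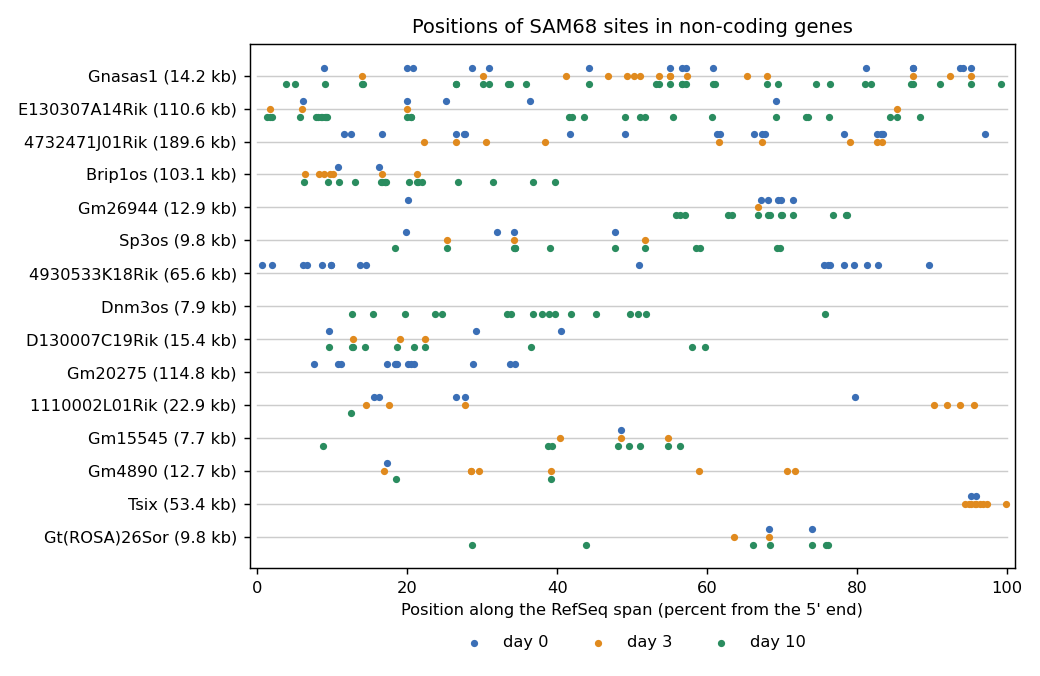
Position of every site along the RefSeq span (percent from the 5′ end, with span length in kb) in 15 RefSeq-named genes with 10 or more sites, coloured by day. Tsix sites lie at the far end of the span and Brip1os and Gm20275 sites near the beginning.

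The protein-coding neighbour could be examined for most members. Overlap and distance were taken from the stretch between the first and last called site of a member, not from its RefSeq span. An opposite-strand RefSeq gene overlapped this stretch in 45 members, 44 of them antisense, and another 4 overlapped a gene of unknown strand. A further 11 had a neighbour within 1 kb, 20 within 5 kb and 1 within 10 kb, and 12 had none. Sp3os with Sp3, Igf2os with Igf2 and Gt(ROSA)26Sor with Thumpd3 overlap by RefSeq span alone and are not among the 45. Of the 45 overlapping neighbours, 29 had at least 1 site on some day, whereas 32.7% of all 21900 RefSeq protein-coding genes did. These are not like sets. The 45 are all of known strand, as were 18841 of the 21900, and a gene of unknown strand has no linked site by construction. The difference was not tested, and length was not matched. The neighbours held 1107 sites against 368 in the members, with more sites than the member in 24 pairs and fewer in 21.

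A bound member did not always have a bound neighbour. On day 0 the neighbour had a site for 13 of the 28 bound members (46.4%) and for 9 of the 17 members with no site that day (52.9%). On day 3 it was 6 of 18 (33.3%) against 16 of 27 (59.3%), and on day 10 it was 15 of 25 (60.0%) against 11 of 20 (55.0%). The difference between bound and unbound members was not tested.

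Site numbers of single pairs took different courses. Gnas, the stimulatory G protein gene opposite Gnasas1, had 0, 11 and 65 sites while Gnasas1 had 16, 16 and 32. The Gnas share on day 10 was 2.25 times that of day 3 (1.18 to 4.72). Bicc1, an RNA-binding protein gene, had 0, 0 and 8 sites while 4930533K18Rik had 18, 0 and 0, and the unconventional myosin gene Myo9a had 7, 10 and 26 sites while Gm20275 had 13, 0 and 0. Pcf11, a factor of transcript cleavage, had 8, 2 and 17 sites beside 6, 1 and 14 in Gm26944. Sp3 had 8, 8 and 23 beside 4, 3 and 12 in Sp3os. Igf2 had 0, 0 and 24 beside 0, 0 and 6 in Igf2os, and its interval against day 0 began at 2.41. Hif1a had 2, 11 and 30 sites beside 0, 0 and 9, and its ratio of day 10 to day 0 was 6.01 (1.52 to 51.9). Rab30 had 5, 0 and 2 beside 8, 7 and 18 in ENSMUSG00000074024.5. No site was linked by name to Dnm3, Ceacam2, Mmaa, Mycbp, Kif3c or Srrm4 on any day, and Traf3ip2, opposite E130307A14Rik, had 0, 0 and 3. Ints2, opposite Brip1os, had 3, 2 and 1, and Suv39h1 had 0, 1 and 1.

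Over the 45 overlapping pairs, with no minimum on sites, 9 members and 8 neighbours had an interval that excluded 1 from day 0 to day 10, and in no pair did both. The same rule called 17.8% of all 7451 genes with a site in either list. From day 0 to day 3 it called 4 members, 5 neighbours and no pair, against 8.15% of 6346 genes. From day 3 to day 10 it called 4 members, 8 neighbours and both genes of 1 pair, against 14.2% of 7299 genes. In that pair, ENSMUSG00000104968.1 had 1, 3 and 0 sites and Lhfp, on the opposite strand, 0, 0 and 16. This ID was chosen after its values were seen. With neighbours within 10 kb, 2 of 72 pairs were called in both genes from day 3 to day 10, and the second was 1700097N02Rik, chosen in the same way, with 2, 3 and 0 sites, beside the axonemal dynein gene Dnah8, with 34, 12 and 0. Only 6 overlapping pairs had 5 or more sites in each gene over days 0 and 10. Across these 6, the log2 ratios had a Pearson correlation of 0.24 and a Spearman correlation of 0.14, and 2 of 6 pairs had ratios of the same sign, which is a description over pairs that share the list lengths.

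**Figure D5:**
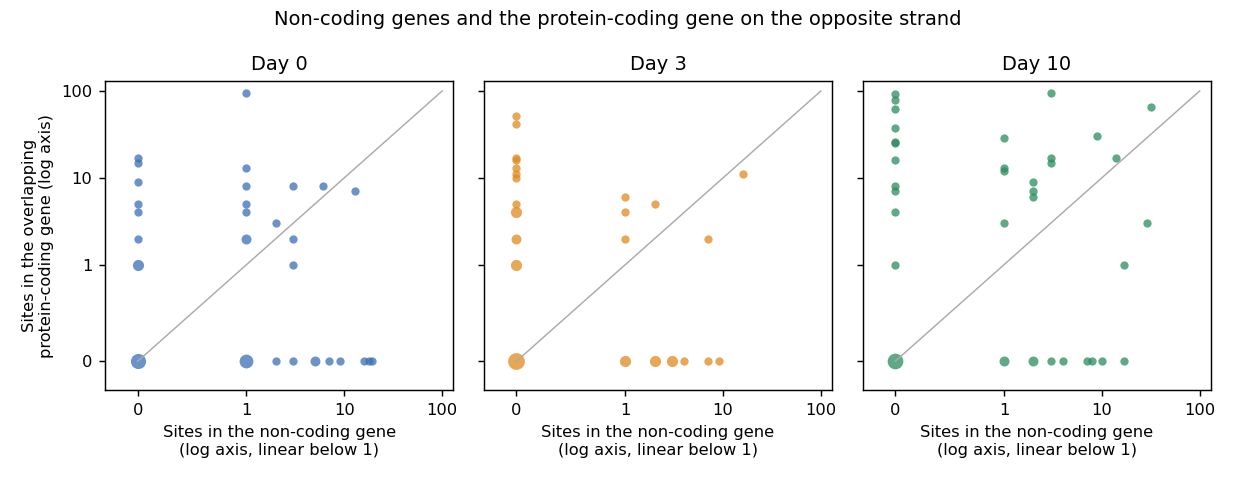
Sites in the protein-coding gene (vertical) against sites in the antisense or bidirectional gene (horizontal) on each day, for 45 pairs on opposite strands. In these the protein-coding gene overlaps the stretch from the first to the last called site of the non-coding gene. Axes are logarithmic with a linear part below 1, larger points hold several pairs and the line marks equal counts, and many pairs lie on an axis, with sites in 1 gene alone.

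Member sites were seldom close to a site on the other strand. Over the 3 lists, 235 of the 559 member sites lay inside the span of an opposite-strand protein-coding gene (42.0%, 38.0 to 46.2) and 13 inside one of the same strand (2.33%). The overlap setting remove, used when sites were assigned to genes, may have lowered the same-strand share, which is therefore read as no result. A protein-coding site on the opposite strand lay within 100 nt of 0 of 169 sites on day 0, which allows up to 2.22% by the Wilson interval, and of 0 of 118 on day 3, up to 3.15%. On day 10 it was 3 of 272 (1.103%, 0.376 to 3.19). These were sites of Rab10os at 81 nt, of Gm16740 at 84 nt and of an ID without a symbol at 5 nt, all named because they are the only 3. Of protein-coding sites, 0.0250% had a site of any class on the opposite strand within 100 nt on day 10. This is not a like background, since the member search took protein-coding sites alone. Antisense members also lie opposite another gene by their class.

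The developmental antisense transcripts were looked up by name. Of 20 such genes listed from general knowledge, all in the RefSeq table, 7 had a site. The 32.7% of RefSeq protein-coding genes with a site is no like background, since class and length differ. The share among RefSeq non-coding genes was not computed. Of the 7 genes, 5 were members. These were Tsix, Gnasas1 and Igf2os, described above, Hoxb5os with 1, 0 and 0 sites and Hotairm1 with 0, 0 and 1. No site was linked by name to Hoxb6, the neighbour of Hoxb5os. The other 2, Hand2os1 with 0, 0 and 9 sites and Sox2ot with 1, 1 and 0, were classed as processed transcripts.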

How the data were processed

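SAM68 iCLIP2 libraries, 5 each from days 0, 3 and 10, were deposited as 1 list of called 5-nt sites per day. The score column of the lists is 0 throughout, per the file headers it is not used, and the deposited score carries no signal. Per the file headers, sites were assigned to genes with the overlap setting remove. Per the submitters' processing notes, STAR 2.7.11a, bedtools 2.31.1, UMI-tools 1.1.6, SAMtools 1.22.1, MultiQC 1.31 and FastQC 0.12.1 were used, with the builds GRCm38.p5 and GRCh38.p14. No source used here names the site caller or says how libraries were joined into a list.

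Shares were counted sites over the list length with Wilson intervals, ratios used exact conditional binomial intervals and differences Newcombe intervals, in Python 3.11.15 with SciPy 1.17.1, pandas 2.3.3 and NumPy 2.4.6; figures used matplotlib 3.10.9. All intervals are at 95%. The ratio calls were tested on simulated data. RefSeq GRCm38.p6 gave names (at least 80% of an ID's sites inside the gene), spans, neighbours and sequences; both builds are patches of GRCm38, whose chromosomes share coordinates. Protein-coding IDs were named in 97.0% of 7380 cases. The strand of RefSeq genes came from start windows or the named IDs. Because the lists carry 1 value per day, no test used replicates.

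The members and lists were chosen with earlier results of these data known. The named genes are the 5 members with most sites per day and per class, every member counted as larger or smaller except 1 left out below, those with an overlapping site on all 3 days, those of the developmental list, and their neighbours; Srrm4os, D130007C19Rik, 1110002L01Rik, 1700097N02Rik, Rab10os, Gm16740 and the IDs opposite Hif1a and Lhfp were chosen after their values were seen. Alternatives changed the classes, the denominator, the merging of sites, the minimum and the interval. One member with 10 or more sites is counted but not reported here.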

Additional observations from a re-analysis of the deposited data

How the results depend on the processing

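No paired analysis was possible because each list pools the libraries of a day. For the same reason no library could be left out. The planned motif analysis around all sites was not run here, since it needs a genome. Of 134 alternatives to the main values, 77 kept the direction and the side of the threshold or stayed within the spread, 9 were weaker, 21 stronger, 22 moved and 5 reversed. Of 90 alternatives for single genes, 88 were unaffected and 2 lost the call under a 99% interval.

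Shares on days 0, 3 and 10 were 0.831%, 0.644% and 0.938% with Airn and Kcnq1ot1, 0.0437%, 0.0708% and 0.0377% for the bidirectional class alone and 0.462%, 0.325% and 0.310% in genes with 5 or more sites. The antisense class alone gave 0.347% on day 3, and leaving out the gene with most sites gave 0.323% on day 10. With Airn and Kcnq1ot1 the ratios of day 10 to day 0 and to day 3 turned to 1.13 and 1.46. In the bidirectional class alone the ratio of day 3 to day 0 turned to 1.62, that of day 10 to day 0 was 0.862 and that of day 10 to day 3 was 0.533.

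The number of members called depends on the minimum. With 5 sites it was 1 larger and 4 smaller for day 3 over day 0, 6 smaller for day 10 over day 0 and 4 smaller for day 10 over day 3. With no minimum these were 1, 4, 10 and 6. With 20 sites they were 0 smaller, 0 larger and 0 smaller, and 0 larger and 0 smaller. A 99% interval left 1 larger for each comparison with day 10, and merging sites within 50 nt left 0 smaller for day 10 over day 3.

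Recurrence was 6.51%, 5.92% and 15.3% (day 0 on day 3, day 0 on day 10, day 3 on day 10) when the same centre was asked for. In genes bound on both days, a restriction that removes only sites not found again, it was 22.6%, 46.2% and 45.1%, and 22.1%, 42.9% and 43.6% there without Gnasas1. The difference from protein-coding sites for day 0 on day 3 was -6.53 points within 50 nt and -6.08 without Gnasas1. For day 0 on day 10 it was -4.77 with the same centre, -7.27 within 10 nt, -11.0 within 50 nt and -10.4 without Gnasas1, but 19.1 in genes bound on both days and 15.8 there without Gnasas1. For day 3 on day 10 it was 17.4 and 15.9 in those genes. Neighbours within 5 kb were found for 71 members and 45 had sites, and within 10 kb for 72 and 46. The opposite-strand share on day 10 was 0.368% within 50 nt and 5.51% within 1 kb. Read depth of the libraries is unknown and limits every count.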

Other observations

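Some members with few sites lay opposite heavily bound or developmentally known genes, and were picked after their values were seen. Mir133a-1hg, the host of a muscle miRNA, had 0, 0 and 3 sites on days 0, 3 and 10. Mib1, the ubiquitin ligase gene of Notch signalling on the opposite strand, had 0, 4 and 17, and its interval of day 10 over day 0 began at 1.65. Rsf1os1 had 3, 0 and 0 sites opposite the chromatin remodelling gene Rsf1 with 8, 16 and 37. Gm12925 had 1, 0 and 0 opposite Macf1, a gene of cytoskeletal crosslinking, with 95, 51 and 93. Gm36816 had 0, 2 and 0 opposite the G protein subunit gene Gng12 with 15, 0 and 62, and 2410021H03Rik had 1, 0 and 0 opposite the membrane skeleton gene Epb41l3 with 0, 0 and 79.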
